A study of Rattus norvegicus with 8 samples.

Results

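Collagen chain genes encode the subunits of the collagens, the triple-helical proteins that make up most of the fibrous matrix of connective tissue. The genes described here are all those whose RefSeq symbol, reached through the accession printed for each probe in the array files, has the form of a collagen chain and which have a probe in the deposited value table. There were 18 such genes of 12765 named genes on the array. The RefSeq gene table lists 44 collagen symbols, and the 26 without a matched probe, Col4a2, Col5a2, Col6a1 and Col6a3 among them, were not analysed here. By type, 7 of the 18 were fibrillar chains (Col1a1, Col1a2, Col2a1, Col3a1, Col5a1, Col5a3 and Col11a2), 2 were basement membrane chains (Col4a1 and Col4a4), 3 were FACIT chains (Col9a1, Col9a2 and Col14a1) and 6 belonged to other types (Col6a2, Col7a1, Col8a1, Col13a1, Col18a1 and Col23a1).

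Fibrillar collagens assemble into the banded fibrils of the epineurium and endoneurium, which are laid down mainly by fibroblasts. Type IV collagen forms the network of basement membranes, which in peripheral nerve surrounds each Schwann cell unit, the perineurial layers and the capillaries. FACIT collagens (fibril-associated collagens with interrupted triple helices) sit on the surface of fibrils, while the remaining types include microfibrils, anchoring fibrils, short networks and collagens that span the cell membrane.

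RNA was measured on 8 one-colour Agilent arrays, 1 for each group, from Sprague-Dawley rats. In adult females of 200 to 225 g the left sciatic nerve was cut at mid-thigh, and its proximal and distal segments were taken at day 1 together with the right sciatic nerve, the control, which the labels mark as a site of PBS injection. The 2 spinal cord groups were a dorsal hemisection and a C-level control, taken 5 days after an injection by their labels and 5 days after injury by the protocol. Each nerve and cord array held RNA pooled from 3 animals, and the labels do not say whether the nerve segments came from the same animals. Primary Schwann cells were isolated from rats of postnatal days 1 to 3, treated with AraC and with anti-Thy1.1 and complement to remove fibroblasts, and used at passages 3 to 7 in serum-containing medium with forskolin. They were left unstimulated for 24 h or given S100A8/A9, a pair of calcium-binding proteins released by neutrophils, at 5 µg/ml for 1 h or 24 h. There was no unstimulated culture of 1 h.

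All values are the authors' deposited log2 values, every array having the same median of 8.03, named by the column headings of their table; for 7 of the 8 columns the scan that ranks the probes in the same order is recorded under another sample, so every direction below rests on those headings. With each scan under the sample it is recorded under, 3 chains were higher and 3 lower in distal nerve, against 1659 and 2484 of all 12502 measured genes. In that setting 0 chains were higher in the dorsal hemisection, against 98 of all 11025. Under the headings, 5 of 5 measured neuron markers were lower in nerve than cord, against 14.8% of all genes. Of 30367 probes, each array had between 66.7% and 77.6% well above background. With 1 array per group no test of a condition was possible and no p-value is given. The error after ± is the technical error of a log2 ratio between replicate spots of an array, and it holds neither animal nor culture variation. A gene was called higher or lower at a difference of at least 2-fold, and was counted as measured where at least 1 array of the comparison had it well above background. Where 1 side was not well above background the difference is a bound, written as at least or at most. Because these are bulk samples, fewer cells of a type and less RNA per cell cannot be told apart.

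Collagen chains varied more between the arrays than most genes on them. Their median range over the 8 arrays was 5.14 log2 units against 1.84 for all genes, and 16 of the 18 spanned at least 2 units against 45.5% of all genes. In all, 14 of the 18 were well above background on every array. The exceptions were Col7a1, which was not well above background in contralateral nerve, Col4a4 and Col23a1, which were not on the 3 Schwann cell arrays, and Col13a1, which was well above background only on the dorsal hemisection cord array.

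**Figure D1:**
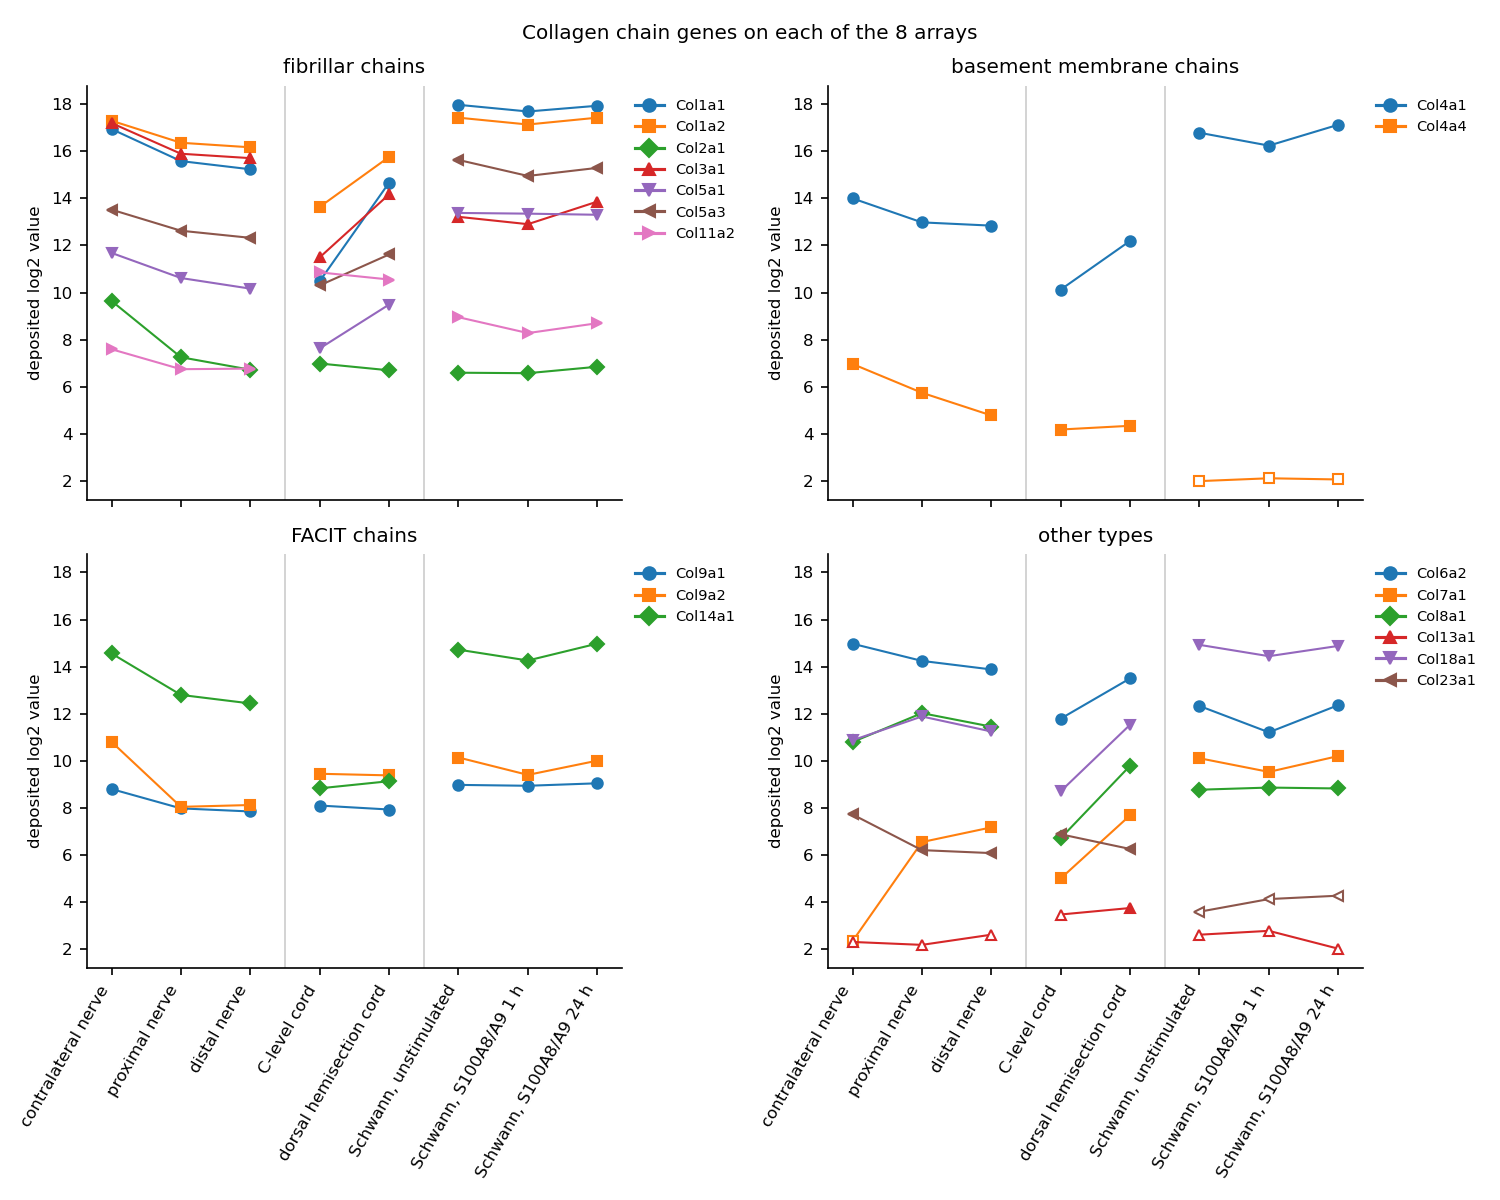
Deposited log2 value (y axis) of each of the 18 collagen chains on the 8 arrays (x axis), in 4 panels by collagen type; lines join arrays of 1 tissue, and open symbols mark values not well above background. The injured nerve segments sit below contralateral nerve for most chains while Col7a1, Col8a1 and Col18a1 sit above it, and the dorsal hemisection sits above C-level cord for 5 of the 7 fibrillar chains.

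In the distal segment, fibrillar, basement membrane and FACIT collagens were lower than in contralateral nerve at day 1, while 3 collagens of other types, Col7a1, Col8a1 and Col18a1, had values above the control. Of 17 chains measured, 12 were at least 2-fold lower, against 14.3% of all genes, and 1 was at least 2-fold higher, against 13.4%. The median log2 ratio was -1.20 for the chains and 0.01 for all genes. By type, 6 of 7 fibrillar chains, both basement membrane chains, 2 of 3 FACIT chains and 2 of 5 chains of other types were lower.

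The proximal segment was compared with the same contralateral array, so the comparisons are not independent. There 9 of 17 chains were at least 2-fold lower, against 11.8% of all genes, and 3 were higher, against 11.1%, with a median of -1.02 for the chains and -0.01 for all genes. With normexp background correction 5 chains were lower proximally, against 785 of all 12242 measured genes, which was 1450 on the deposited scale. Between the distal and proximal segments 0 of 17 chains differed by 2-fold in either direction, against 1.24% of all genes higher and 1.94% lower, and the median was -0.30.

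Type I collagen, the main collagen of nerve connective tissue, is built from Col1a1 and Col1a2 chains. Col1a1 measured 16.94 in contralateral, 15.58 in proximal and 15.24 in distal nerve. Its log2 ratio was -1.36 ± 0.07 proximally and -1.71 ± 0.07 distally. For Col1a2 the values were 17.30, 16.36 and 16.17 in the same order, giving -0.94 ± 0.07 and -1.13 ± 0.07. Of the 3 nerve arrays the contralateral one was highest for both chains, and the distal ratio of Col1a1 was lower than that of Col1a2 by a log2 difference of -0.58 ± 0.11. The other Col1a1 probe gave -1.92 proximally and -2.19 distally.

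Type III collagen, a homotrimer of Col3a1 that forms thin fibrils with type I, stood at 17.20 in contralateral, 15.90 in proximal and 15.71 in distal nerve. The corresponding log2 ratios were -1.30 ± 0.07 and -1.49 ± 0.07. Type V collagen starts fibril assembly and limits fibril width; its Col5a3 chain is known from Schwann cells. Col5a1 was at 11.68, 10.62 and 10.17 across contralateral, proximal and distal nerve, with log2 ratios of -1.07 ± 0.08 (-0.94 with normexp) and -1.52 ± 0.08. Col5a3 was at 13.52, 12.63 and 12.32, with ratios of -0.90 ± 0.07 and -1.20 ± 0.08. For all 3 genes the contralateral array was the highest and the distal array the lowest of the nerve arrays.

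The largest fold among the fibrillar chains belonged to Col2a1, best known from cartilage, which measured 9.64 in contralateral, 7.25 in proximal and 6.72 in distal nerve. Its log2 ratios were -2.39 ± 0.13 and -2.92 ± 0.11, the latter -2.33 with normexp. Contralateral nerve was also its highest array of the 8, since the cord and Schwann cell arrays lay between 6.58 and 6.99. Of the cartilage and tendon marker list, 2 of 4 measured genes were lower distally (Scx -3.04 and Tnmd at most -2.32), against 14.3% of all genes. Acan, the defining proteoglycan of cartilage, was not well above background in any nerve sample. The part of these markers in the Col2a1 values was not tested. Col11a2, a minor chain of cartilage fibrils, was at 7.59, 6.74 and 6.77, below the 2-fold threshold in both segments with -0.85 ± 0.14 and -0.82 ± 0.12.

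Among the basement membrane chains, Col4a1, the widespread chain that pairs with Col4a2, was at 14.00 in contralateral, 12.98 in proximal and 12.84 in distal nerve, giving -1.02 ± 0.07 and -1.16 ± 0.07. Col4a4, a chain of the specialised network found with Col4a3 and Col4a5, was at 6.97, 5.74 and 4.78, giving -1.22 ± 0.32 and -2.19 ± 0.29, which with normexp were -0.67 and -0.93, under 2-fold. The proximal ratio of Col4a1 was also under 2-fold with normexp, at -0.96, and with matched scans at the 75th percentile, at -0.93. Within nerve both were highest contralaterally. The 4 measured genes of the basement membrane partner list were all at least 2-fold lower distally, against 14.3% of all genes. They ran from -1.09 for Nid2, a nidogen that links laminin to type IV collagen, to -2.11 for Lamb2, a laminin chain. Proximally 2 of the 4 were lower, against 11.8% of all genes.

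Among the FACIT chains, Col14a1, which binds type I fibrils, measured 14.56 in contralateral, 12.80 in proximal and 12.43 in distal nerve. Its log2 ratios were -1.76 ± 0.07 and -2.12 ± 0.07. Col9a2 was at 10.80, 8.04 and 8.12, giving -2.76 ± 0.10 and -2.68 ± 0.12. Within nerve both were highest contralaterally, with the cut segments close to each other.

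Col9a1, which joins Col9a2 in type IX collagen, depended on the probe. The probe with the highest mean gave 8.80, 7.98 and 7.85, with log2 ratios of -0.82 ± 0.15 and -0.95 ± 0.18, under the 2-fold threshold. The other 2 probes gave -2.41 and -2.21 proximally and -1.90 and -1.96 distally, past that threshold. These also separated the tissues, with nerve means of 9.23 and 9.25 against cord means of 2.71 and 5.11 and Schwann cell means of 5.20 and 5.64. By contrast the first probe had means of 8.21, 8.01 and 8.99 in nerve, cord and Schwann cells. Which of the 3 probes reports the gene was not tested.

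**Figure D2:**
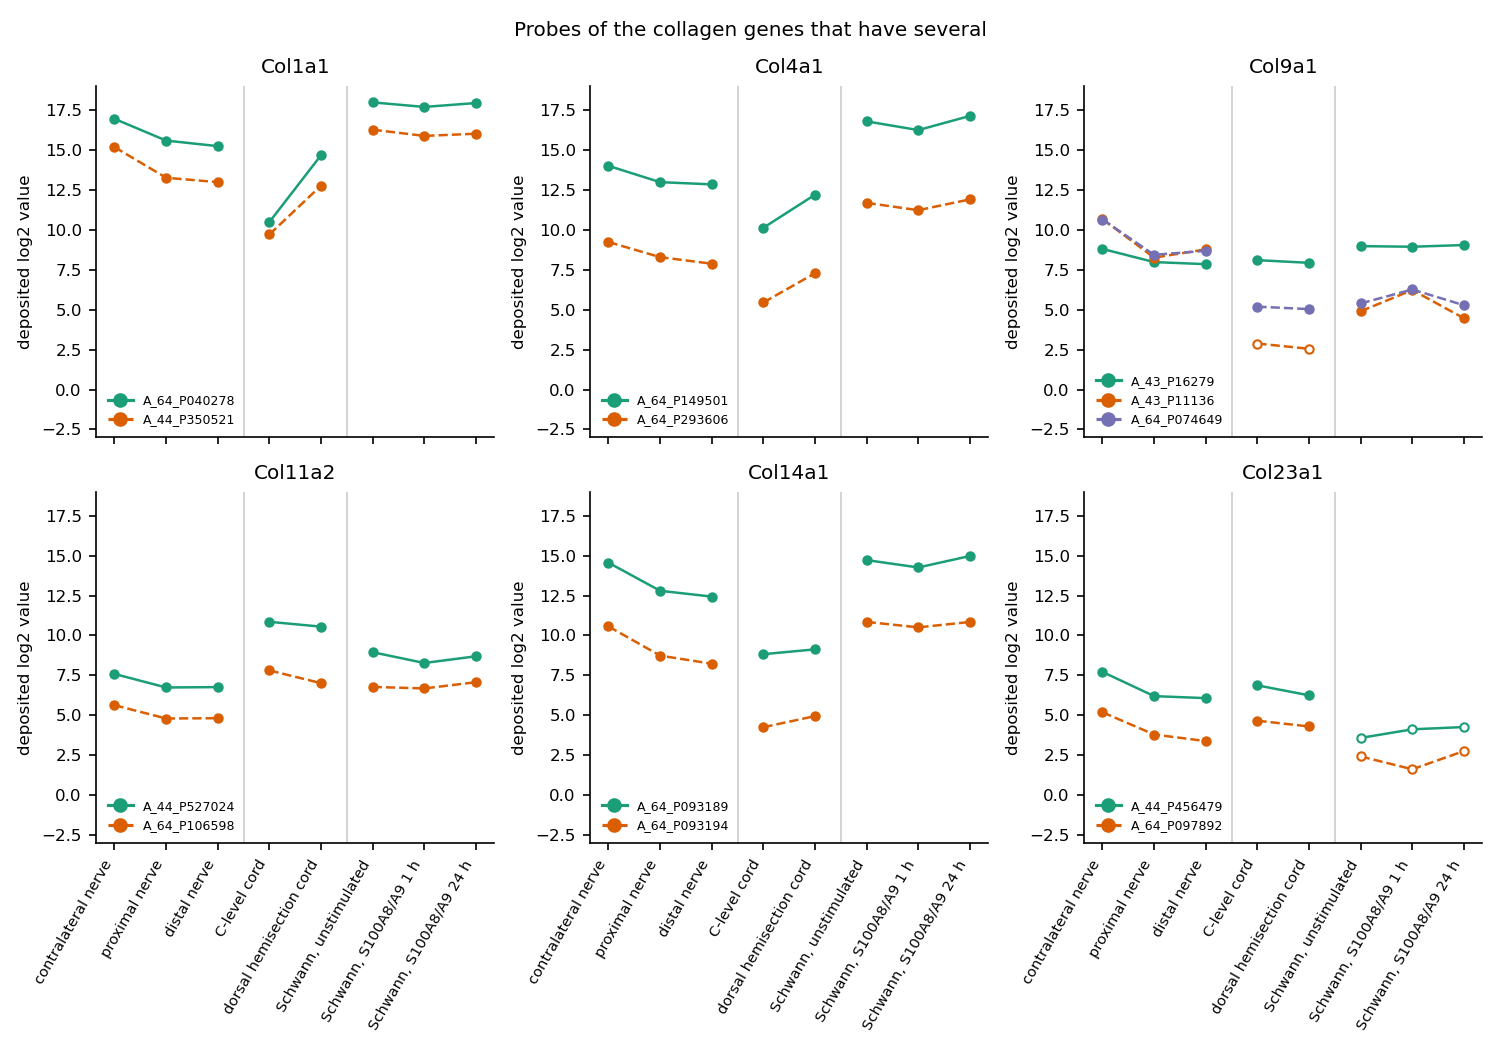
Deposited log2 values (y axis) on the 8 arrays (x axis) for the 6 collagen genes with several probes; the solid line is the probe used for the gene, dashed lines are its other probes, and open symbols are not well above background. The probes of Col1a1, Col4a1, Col11a2, Col14a1 and Col23a1 put both cut nerve segments below contralateral nerve alike. Those of Col9a1 do so too, but its used probe differs little between tissues, whereas its other 2 are far higher in nerve.

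The chains of other types went in different directions. Col6a2, a chain of the beaded microfibrils of type VI collagen, was at 14.97 in contralateral, 14.24 in proximal and 13.88 in distal nerve, with -0.73 ± 0.07 and -1.09 ± 0.07, the latter -0.93 with matched scans at the 75th percentile. Col23a1, a collagen that spans the cell membrane, was at 7.72, 6.20 and 6.08, with -1.52 ± 0.14 and -1.64 ± 0.15, which with normexp were -0.87 and -0.92, under 2-fold. Within nerve both were highest contralaterally.

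Col7a1, which forms the anchoring fibrils that tie basement membranes to underlying matrix, was at 2.34 in contralateral nerve, not well above background, and at 6.55 in proximal and 7.17 in distal nerve. The log2 difference was at least 3.56 proximally and at least 4.18 distally on the deposited scale. With normexp it was 1.14 and 1.53, and distally it was 3.62 with matched scans at the 75th percentile. Col8a1, a chain of a short network collagen of vessel walls and other tissues, was at 10.80, 12.02 and 11.45, with a ratio of 1.23 ± 0.08 proximally and 0.65 ± 0.08 distally. Col18a1, a basement membrane proteoglycan whose C-terminal fragment is endostatin, was at 10.87, 11.88 and 11.24, with 1.01 ± 0.08 and 0.37 ± 0.08. For Col8a1 and Col18a1 the proximal array was the highest of the 3 and only the proximal ratio passed 2-fold, that of Col18a1 by 0.01. The distal minus proximal difference was -0.57 ± 0.06 for Col8a1 and -0.64 ± 0.06 for Col18a1. Col13a1 was not well above background in any nerve sample.

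The upstream sequences of 8 chains are shown because they cover both directions in cut nerve: Col1a2, Col4a1, Col5a1, Col5a3 and Col9a2, which were below contralateral nerve in both segments, and Col7a1, Col8a1 and Col18a1, which were above it. They are the 250 bases before the annotated start, read from RefSeq on the GRCr8 build, which is not the build of the array design, on the strand of the gene and 5′ to 3′. Capitals mark CCAAT and GGGCGG on either strand, the reverse strand reading ATTGG and CCGCCC. Col1a2 lies at chr4:33518307-33518556 (forward strand), Col4a1 at chr16:84885347-84885596 (forward strand), Col5a1 at chr3:31606630-31606879 (forward strand), Col5a3 at chr8:27625949-27626198 (reverse strand), Col9a2 at chr5:139892548-139892797 (forward strand), Col7a1 at chr8:118483114-118483363 (forward strand), Col8a1 at chr11:56246532-56246781 (forward strand) and Col18a1 at chr20:11473395-11473644 (forward strand).
Col1a2: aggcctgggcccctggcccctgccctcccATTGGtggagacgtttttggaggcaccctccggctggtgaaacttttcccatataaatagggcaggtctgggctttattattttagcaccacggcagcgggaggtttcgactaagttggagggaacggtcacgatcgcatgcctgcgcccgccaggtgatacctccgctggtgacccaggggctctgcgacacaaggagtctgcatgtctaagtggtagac
Col4a1: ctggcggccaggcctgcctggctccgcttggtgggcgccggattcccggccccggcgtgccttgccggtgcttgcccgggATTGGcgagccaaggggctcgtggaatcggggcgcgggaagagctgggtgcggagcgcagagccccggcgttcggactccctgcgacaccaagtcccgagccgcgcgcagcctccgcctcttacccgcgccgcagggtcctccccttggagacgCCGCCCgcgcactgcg
Col5a1: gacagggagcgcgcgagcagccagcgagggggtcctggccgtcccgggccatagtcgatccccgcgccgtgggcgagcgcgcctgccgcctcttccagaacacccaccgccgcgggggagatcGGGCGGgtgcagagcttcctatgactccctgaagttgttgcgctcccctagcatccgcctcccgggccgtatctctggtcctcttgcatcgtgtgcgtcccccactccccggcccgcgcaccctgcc
Col5a3: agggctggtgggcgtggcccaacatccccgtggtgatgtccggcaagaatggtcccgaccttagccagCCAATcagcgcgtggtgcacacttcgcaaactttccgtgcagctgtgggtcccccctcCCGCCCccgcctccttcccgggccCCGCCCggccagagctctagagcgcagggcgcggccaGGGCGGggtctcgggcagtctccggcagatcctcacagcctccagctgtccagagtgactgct
Col9a2: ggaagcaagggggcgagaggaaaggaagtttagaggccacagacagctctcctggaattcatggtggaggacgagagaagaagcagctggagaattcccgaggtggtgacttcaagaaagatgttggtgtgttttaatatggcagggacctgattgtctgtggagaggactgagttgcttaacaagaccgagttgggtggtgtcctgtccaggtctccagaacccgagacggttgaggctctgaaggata
Col7a1: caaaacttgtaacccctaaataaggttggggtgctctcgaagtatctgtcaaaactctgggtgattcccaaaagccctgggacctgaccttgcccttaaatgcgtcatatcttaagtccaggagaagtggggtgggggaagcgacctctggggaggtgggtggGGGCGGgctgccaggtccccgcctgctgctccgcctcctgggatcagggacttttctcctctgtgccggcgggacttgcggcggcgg
Col8a1: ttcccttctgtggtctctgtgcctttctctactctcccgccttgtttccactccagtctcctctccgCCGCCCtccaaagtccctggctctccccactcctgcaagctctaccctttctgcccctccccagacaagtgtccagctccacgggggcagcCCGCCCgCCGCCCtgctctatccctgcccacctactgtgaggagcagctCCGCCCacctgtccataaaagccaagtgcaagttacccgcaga
Col18a1: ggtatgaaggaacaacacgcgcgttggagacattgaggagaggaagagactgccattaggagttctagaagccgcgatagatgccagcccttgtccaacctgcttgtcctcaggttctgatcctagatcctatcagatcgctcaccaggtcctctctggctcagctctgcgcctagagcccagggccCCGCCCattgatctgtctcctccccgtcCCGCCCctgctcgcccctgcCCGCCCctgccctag

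An upstream sequence was matched for 13 of the 18 chains; those of Col1a1, Col2a1, Col3a1, Col6a2 and Col14a1 are not shown. Of the 13, Col1a2, Col4a1 and Col5a3 held CCAAT, a motif bound by the factor NF-Y, as did 34.0% of all 33469 windows of that length. The other 6 chains with a window that were below contralateral nerve (Col4a4, Col5a1, Col9a1, Col9a2, Col11a2 and Col23a1) held none. GGGCGG, the core of the GC box bound by Sp1, was in 8 of the 13 and in 30.5% of all windows. TATAAA was in 2 of the 13, Col1a2 and Col13a1, and in 12.9% of all windows, and TGANTCA, the AP-1 motif, was in 0 of the 13 and in 6.3% of all. These matches describe the letters of the windows and say nothing of binding. In Col1a2 the first base of TATAAA lay at -170 from the annotated start. Whether the annotated starts are where transcription begins was not tested, so a window may hold transcribed bases.

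**Figure D3:**
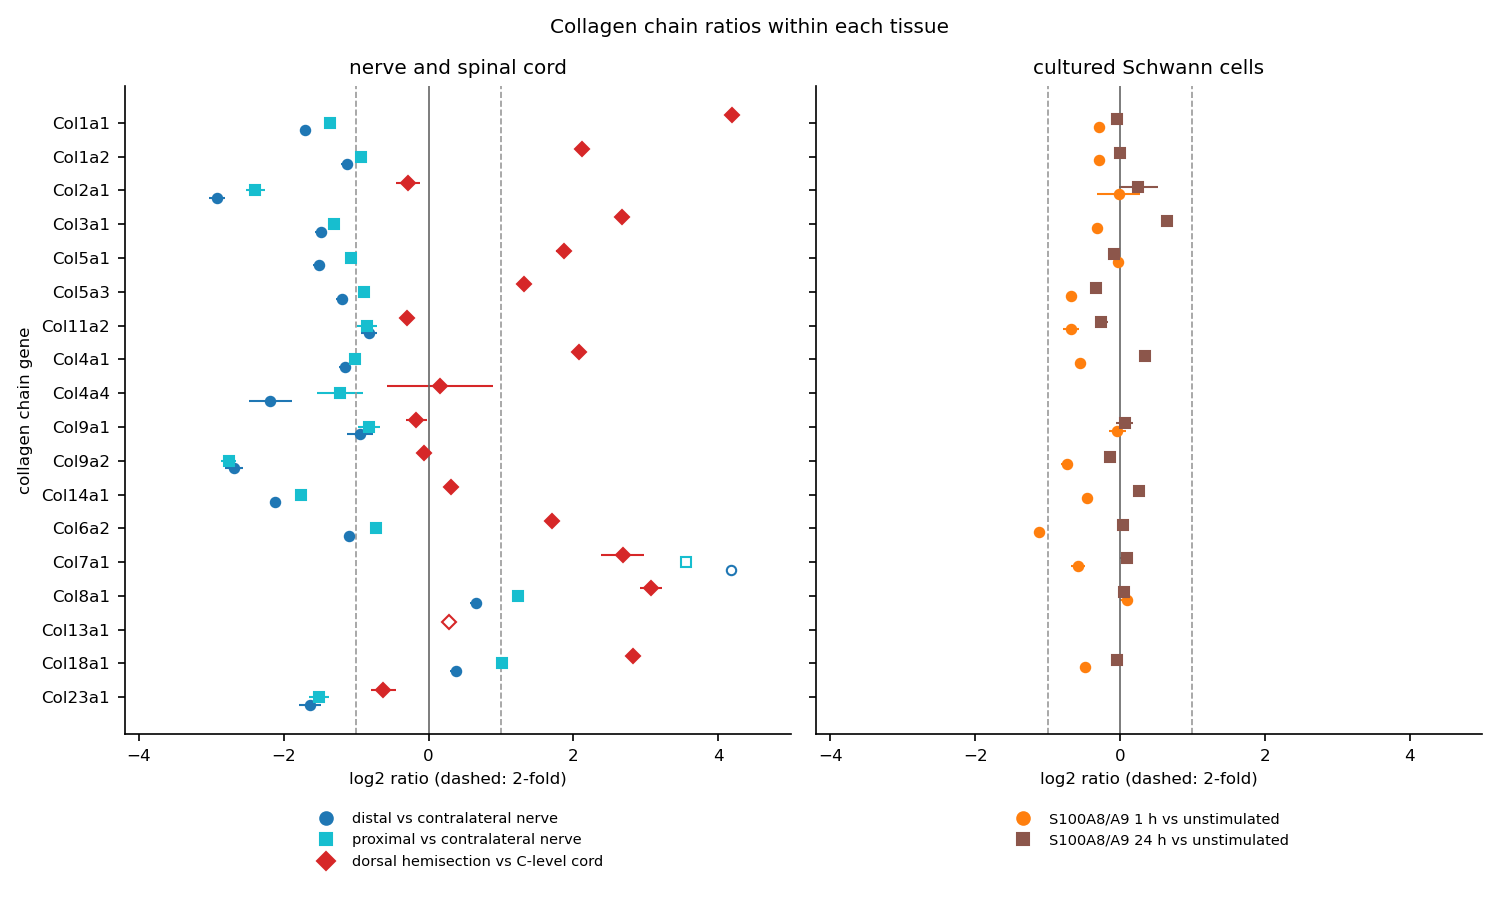
Log2 ratio (x axis) of each collagen chain (y axis) for the nerve and cord comparisons (left) and for stimulated against unstimulated Schwann cells (right); bars are the technical spot error, open symbols are lower bounds and dashed lines mark 2-fold. Nerve ratios lie left of 0 for 14 of 17 measured chains in the distal segment, cord ratios reach 4.18 for Col1a1, and on the right only Col6a2 at 1 h lies past 2-fold.

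In spinal cord the dorsal hemisection was above the C-level control for most fibrillar chains, Col4a1, and 4 of the 6 chains of other types, while the FACIT chains differed little. Of 18 chains measured, 10 were at least 2-fold higher, against 10.2% of all genes, and 0 were lower, against 9.24%. The median log2 ratio was 1.51 for the chains and -0.05 for all genes. The labels name a level of the cord only for the control and do not say whether hemisection means a lesion or the piece dissected, so level and hemisection cannot be told apart.

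Col1a1 measured 10.48 in C-level cord and 14.67 in the dorsal hemisection, a log2 ratio of 4.18 ± 0.06, and its other probe gave 3.05. Its partner Col1a2 was at 13.64 and 15.76, a ratio of 2.12 ± 0.05. The ratio of Col1a1 exceeded that of Col1a2 by 2.06 ± 0.08, or by 0.93 with the other Col1a1 probe. For Col3a1 the values were 11.49 and 14.17, giving 2.68 ± 0.06.

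Of the type V chains, Col5a1 stood at 7.63 in C-level cord and 9.49 in the dorsal hemisection (1.86 ± 0.10), and Col5a3 at 10.30 and 11.62 (1.31 ± 0.06). The cartilage-type fibrillar chains stayed under 2-fold, Col2a1 at 6.99 and 6.70 (-0.29 ± 0.17) and Col11a2 at 10.86 and 10.55 (-0.30 ± 0.07). Col4a1 was at 10.13 and 12.20 (2.07 ± 0.06). Its relative Col4a4 was at 4.18 and 4.34 (0.16 ± 0.73), where the spot error exceeds the difference.

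Each of the 3 FACIT chains lay within 2-fold: Col14a1 at 8.83 and 9.13 (0.30 ± 0.08), Col9a1 at 8.10 and 7.93 (-0.17 ± 0.15) and Col9a2 at 9.45 and 9.38 (-0.07 ± 0.08). Among the other types, Col8a1 was at 6.71 and 9.79 (3.08 ± 0.15), Col18a1 at 8.70 and 11.53 (2.83 ± 0.07), Col7a1 at 5.00 and 7.68 (2.68 ± 0.30, or 1.43 with normexp) and Col6a2 at 11.79 and 13.50 (1.71 ± 0.06). The smallest of these 4 ratios, that of Col6a2, was 3.27-fold and the largest, that of Col8a1, was 8.44-fold. Col23a1 was at 6.88 and 6.25 (-0.62 ± 0.17), and Col13a1, a membrane-spanning collagen, was at 3.75 in the dorsal hemisection and not well above background in C-level cord, a difference of at least 0.28.

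The rest of the collagen pathway was described from lists of enzymes, binding proteins and receptors, 52 of whose 72 genes were measured in nerve. Distally 17 of the 52 were at least 2-fold lower and 3 higher, against 14.3% and 13.4% of all genes, with a median of -0.50. Of 9 measured proteins that bind fibrils, 7 were lower, led by Ogn (-2.38), Fmod (-2.36) and Prelp (-2.06), all small leucine-rich proteoglycans. Of 7 receptors 3 were lower: Itga1, the collagen-binding integrin subunit, at -1.70, the collagen-sensing kinase Ddr2 at -1.31 and the endocytic collagen receptor Mrc2 at -1.04.

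The genes that make and crosslink the chains stayed closer to contralateral nerve. Of 17 modification and folding genes 1 was higher distally (Colgalt1, which adds galactose to collagen, 1.10) and 1 lower (P3h2, a prolyl 3-hydroxylase, -1.05), and 0 of 8 processing and crosslinking genes passed 2-fold. Serpinh1, the collagen chaperone HSP47, had a log2 ratio of -0.25 distally. Of 7 degradation genes 2 were higher distally, Mmp9, a gelatinase, by at least 3.33 and Mmp13, a collagenase, by at least 1.38, and 2 were lower, Fap at -1.45 and Ctsk at -1.29. Proximally 11 of the 52 were lower and 6 higher, against 11.8% and 11.1% of all genes, so the count of higher genes was near the background; Mmp9 was higher by at least 4.53.

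In the cord 25 of 51 measured pathway genes were at least 2-fold higher in the dorsal hemisection and 2 were lower, against 10.2% and 9.24% of all genes, with a median of 0.96. They comprised 6 of 17 modification and folding genes, led by the lysyl hydroxylase Plod2 (1.99), and 5 of 7 processing and crosslinking genes, led by the lysyl oxidase relative Loxl2 (2.49). Of 9 fibril-binding genes 5 were higher, led by the proteoglycan Lum (2.97), and Aspn was lower (-1.60). Of 7 degradation genes 6 were higher, led by the fibroblast protease Fap (3.43) and Mmp8 (at least 3.36), and Mmp13 was lower (-1.29).

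**Figure D4:**
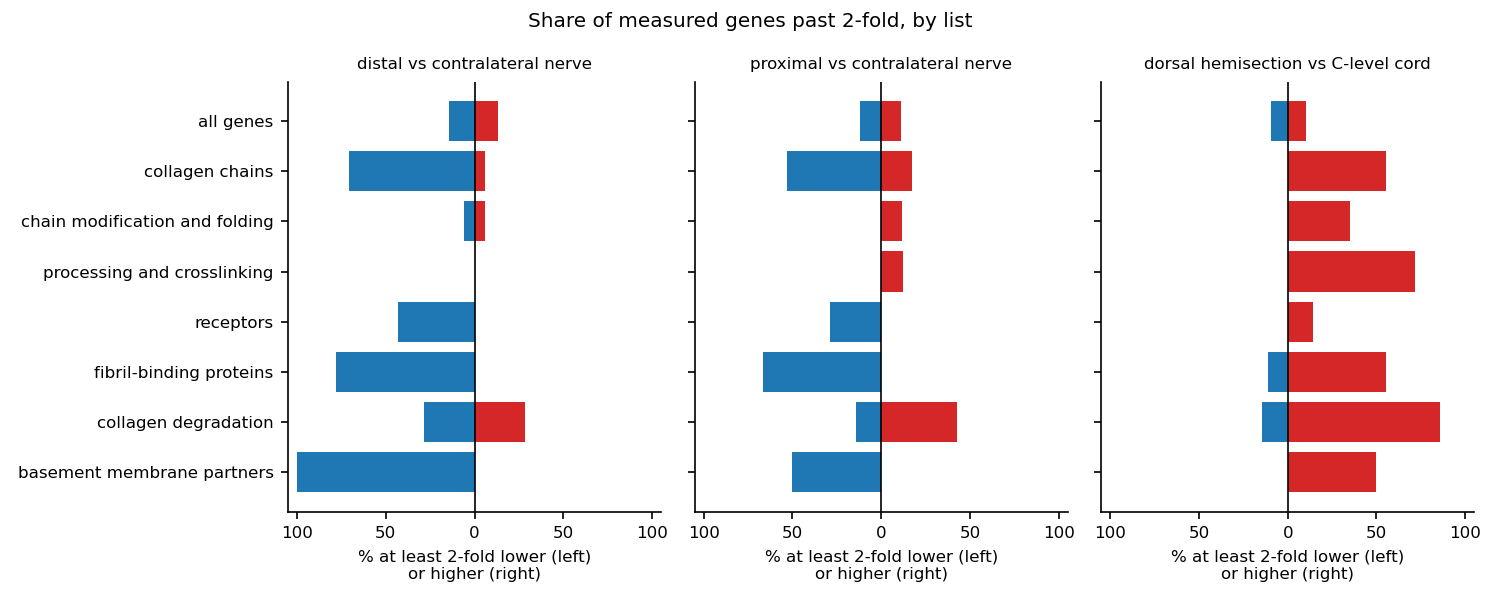
Percent of the measured genes of each list that were at least 2-fold lower (blue, left of 0) or higher (red, right of 0), for distal and proximal nerve against contralateral nerve and dorsal hemisection against C-level cord; each bar is 1 list, the top bar all genes. In distal nerve 12 of 17 collagen chains and 7 of 9 fibril-binding genes are lower, and in cord 10 of 18 chains and 5 of 7 crosslinking genes are higher.

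Values of cell type marker lists differed between the same arrays. Over all genes, 14.3% were lower and 13.4% higher distally, and 11.8% were lower proximally. Distally 3 of 7 measured fibroblast markers were at least 2-fold lower (Pi16 -1.87, Mfap5 -1.74 and Dcn -1.48), whereas Pdgfra had a ratio of 0.14, and the log2 summed level of the list was 18.61 in contralateral, 17.50 in proximal and 17.36 in distal nerve. Schwann cell markers were lower distally for 7 of 9 genes and higher for 1 (Ngfr, 1.60), with summed levels of 18.69, 17.52 and 17.23. Perineurial markers were lower for 2 of 4 genes (summed levels 17.03, 15.61 and 15.05). Adipocyte markers were lower for 6 of 6 genes proximally and 1 of 6 distally (17.56, 16.45 and 16.97), the latter near the share of all genes. Mural cell markers were lower for 2 of 7 in each segment (13.84, 13.26 and 12.93).

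Markers of leukocytes and of muscle were higher in the cut nerve. Over all genes, 13.4% were higher distally and 11.1% proximally. Macrophage markers were higher for 6 of 6 genes distally and 4 of 6 proximally (summed levels 14.37, 15.62 and 16.27 in contralateral, proximal and distal nerve), and neutrophil markers for 6 of 6 in both segments (8.39, 14.81 and 14.32). Skeletal muscle markers were higher for 9 of 9 genes proximally and 6 of 8 distally (10.99, 15.62 and 12.33). All defining markers of fibroblasts in the list were well above background on all 3 nerve arrays. The part of any of these lists in the collagen values was not tested.

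In cord, 3 of 7 fibroblast markers were at least 2-fold higher in the dorsal hemisection (Lum 2.97, Fn1 1.28 and Dcn 1.21) and 1 was lower (Thy1 -1.53, also a neuronal gene), with summed levels of 14.90 in C-level cord and 15.74 in the dorsal hemisection. Schwann cell markers were higher for 4 of 9 genes, among them Prx, a myelin gene of peripheral nerve, by 2.73, with summed levels of 17.78 and 17.52. Macrophage markers were higher for 5 of 6 genes (13.91 and 15.97), neuron markers lower for 3 of 5 (16.14 and 14.78) and skeletal muscle markers lower for 7 of 9 (13.16 and 12.21). Adipocyte markers were lower for 5 of 6 genes (13.53 and 13.30), Adipoq from 9.31 to a value not well above background. Neutrophil markers were higher for 4 of 6 genes (10.34 and 12.16), and cartilage and tendon markers lower for 4 of 5 (11.39 and 10.35). Over all genes, 10.2% were higher and 9.24% lower in the dorsal hemisection. The part of these lists in the collagen values was not tested.

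In cultured Schwann cells 1 collagen chain passed 2-fold after S100A8/A9, while most chains lay lower at 1 h than in the unstimulated culture. At 1 h, 15 chains were measured, of which 1 was at least 2-fold lower, against 1.34% of all genes, and 0 were higher, against 1.69%. The median log2 ratio was -0.46 for the chains and -0.02 for all genes, and 14 of the 15 ratios were below 0, against 5743 of 10968 for all genes. The chain past 2-fold was Col6a2, at 12.33 unstimulated, 11.21 at 1 h and 12.36 at 24 h, with ratios of -1.12 ± 0.06 and 0.04 ± 0.06.

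At 24 h 0 of 15 chains were past 2-fold in either direction, against 0.635% of all genes higher and 0.626% lower, with a median of 0.04. Compared directly, 24 h against 1 h gave 1 chain higher, Col6a2 at 1.16 ± 0.06, against 1.86% of all genes, and 0 lower, against 2.03%. No unstimulated culture of 1 h was analysed here, so time and stimulation cannot be told apart in the 1 h values.

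Within these limits, the fibrillar chain with the largest 24 h ratio was Col3a1, at 13.22 unstimulated, 12.90 at 1 h and 13.86 at 24 h (-0.31 ± 0.05 and 0.65 ± 0.05). Col4a1 was at 16.79, 16.24 and 17.13 (-0.55 ± 0.05 and 0.34 ± 0.05). Col5a3 was at 15.63, 14.95 and 15.29 (-0.68 ± 0.05 and -0.34 ± 0.05), and was lower on both stimulated arrays, while Col5a1, at 13.38, 13.35 and 13.30, stayed within its spot error of 0 at 1 h (-0.03 ± 0.05).

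Of the type I chains, Col1a1 was at 17.97, 17.69 and 17.93 (-0.28 ± 0.05 and -0.04 ± 0.05) and Col1a2 at 17.43, 17.14 and 17.43 (-0.29 ± 0.05 and 0.00 ± 0.05), so that their 1 h ratios were within 0.01 ± 0.08 of each other. Col9a2 (10.14, 9.40 and 10.00), Col14a1 (14.72, 14.26 and 14.98), Col18a1 (14.92, 14.44 and 14.88), Col7a1 (10.11, 9.53 and 10.20) and Col11a2 (8.95, 8.28 and 8.70) were each lowest at 1 h. The 1 h ratios of these 5 chains ran from -0.74 ± 0.07 to -0.46 ± 0.05. Col8a1 (8.77, 8.86 and 8.82), Col9a1 (8.98, 8.94 and 9.04) and Col2a1 (6.60, 6.58 and 6.85) differed by at most 0.27 between any of the 3 cultures. For Col9a1 that holds for the probe used: its other 2 probes gave 1.33 and 0.87 at 1 h against unstimulated, and -1.77 and -0.99 at 24 h against 1 h.

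Of 47 measured pathway genes, 2 were at least 2-fold higher at 1 h (P3h2 1.40 and the lysyl oxidase relative Loxl1 1.14) and 0 lower, against 1.69% and 1.34% of all genes, and 0 passed 2-fold at 24 h in either direction. Among the Schwann cell markers 2 of 9 were lower at 1 h, among them Ngfr at -1.23, and 0 of 9 passed 2-fold at 24 h, with summed levels of 17.88, 17.20 and 17.96 over the unstimulated, 1 h and 24 h cultures. Of 5 measured fibroblast markers 1 was lower at 1 h and 0 were higher, against 1.34% and 1.69% of all genes. It was Mfap5, at 11.31 unstimulated, 8.46 at 1 h and 11.20 at 24 h (-2.85 at 1 h). Of 3 measured perineurial markers 1 was lower at 1 h and 0 were higher. The part of these markers in the 1 h collagen values was not tested.

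Across tissues, a gene was called apart where every array of a tissue lay above every array of another and the means differed by at least 2-fold. The arrays of a tissue are different conditions and not replicates, so these are descriptions. The error after ± of a difference of means is spot error averaged over the arrays, and it holds none of the spread between them. For Col1a1 the 2 cord arrays stood at 10.48 and 14.67. The median of all genes was not at 0 on the deposited scale: it was 0.16 for nerve minus cord, 0.24 for Schwann cells minus nerve and 0.27 for Schwann cells minus cord, and 0.01, 0.05 and -0.06 after scaling the matched scans to their 75th percentile.

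Nerve had higher values than cord for most chains. The cord arrays stood above nerve for 5 of 5 measured neuron, 5 of 5 astrocyte and 6 of 6 oligodendrocyte markers, as their label says. Of 18 chains, 10 were higher in nerve, against 15.2% of all genes, and 2 were lower, against 14.8%. The 10 were Col1a1, Col1a2, Col3a1, Col5a1 and Col5a3 among the fibrillar chains, both basement membrane chains, Col14a1, Col6a2 and Col8a1. Of these, Col4a4 had a difference of 1.57 ± 0.38, which was 0.59 with normexp. The widest differences of means were those of Col14a1 (13.26 against 8.98, 4.28 ± 0.05), Col3a1 (16.27 against 12.83, 3.43 ± 0.04), Col1a1 (15.92 against 12.58, 3.35 ± 0.04) and Col8a1 (3.17 ± 0.08). For Col1a2 and Col6a2 the gap between the lowest nerve array and the dorsal hemisection array was under 0.5, at 16.17 against 15.76 and 13.88 against 13.50.

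The chains lower in nerve were Col11a2, at 6.74 to 7.59 in nerve and 10.55 to 10.86 in cord (-3.67 ± 0.06), and Col13a1, at most -1.01 (-0.11 with normexp); 1 chain was lower in nerve without the proximal or without the dorsal hemisection array. Col18a1 and Col2a1 had means over 2-fold higher in nerve, by 1.21 and 1.03, but their nerve and cord arrays overlapped, and without the C-level array the difference of Col18a1 was -0.20. Col7a1, Col9a1, Col9a2 and Col23a1 had mean differences under 2-fold, for Col9a1 on the probe used. Its other 2 probes gave at least 6.52, with cord not well above background, and 4.14. Several of these values turned on which cord array was used. Without the C-level array, the differences of Col1a2 and Col6a2 were 0.85 and 0.87, under 2-fold, that of Col1a1 was 1.25 and that of Col4a1 1.08, while Col7a1 was lower in nerve by a log2 difference of -2.33. Without the dorsal hemisection array those of Col1a1, Col1a2, Col4a1 and Col6a2 were 5.44, 2.97, 3.15 and 2.58.

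Cultured Schwann cells had a different set of collagens from whole nerve. Of 17 chains measured, 7 were higher in the cultures, against 16.8% of all genes, and 5 were lower, against 16.2%. Without the contralateral nerve array 11 were higher. Higher over all 3 nerve arrays were Col7a1 by 4.59 ± 0.19 (2.99 with normexp), Col4a1 by 3.44 ± 0.04, Col18a1 by 3.42 ± 0.04, Col5a1 by 2.52 ± 0.04, Col5a3 by 2.47 ± 0.04, Col1a1 by 1.94 ± 0.04 and Col11a2 by 1.61 ± 0.07. Lower were Col3a1 (-2.94 ± 0.04), Col8a1 (-2.60 ± 0.04), Col6a2 (-2.40 ± 0.04), Col23a1 (at most -2.67) and Col4a4 (at most -2.27). The nerve mean of Col7a1 holds the contralateral value that was not well above background; without that array its difference was 3.09. With normexp Col23a1 and Col4a4 were at -0.84 and -0.73, under 2-fold.

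The chains higher in culture included 1 of the 2 basement membrane chains (Col4a1) and the basement membrane proteoglycan Col18a1. They also included chains of type V fibrils (Col5a1, Col5a3) and of anchoring fibrils (Col7a1). The lower ones included the other basement membrane chain (Col4a4), type III collagen and the microfibril chain Col6a2. Within type I collagen the excess over nerve was larger for Col1a1 than for Col1a2 (0.72 ± 0.04), by 1.22 ± 0.05. The 3 nerve arrays and the 3 Schwann cell arrays overlapped for Col14a1 and Col2a1, and differences were under 2-fold for Col1a2, Col9a1 and Col9a2. For Col9a1 that holds for the probe used, since its other 2 probes gave -4.04 and -3.61.

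**Figure D5:**
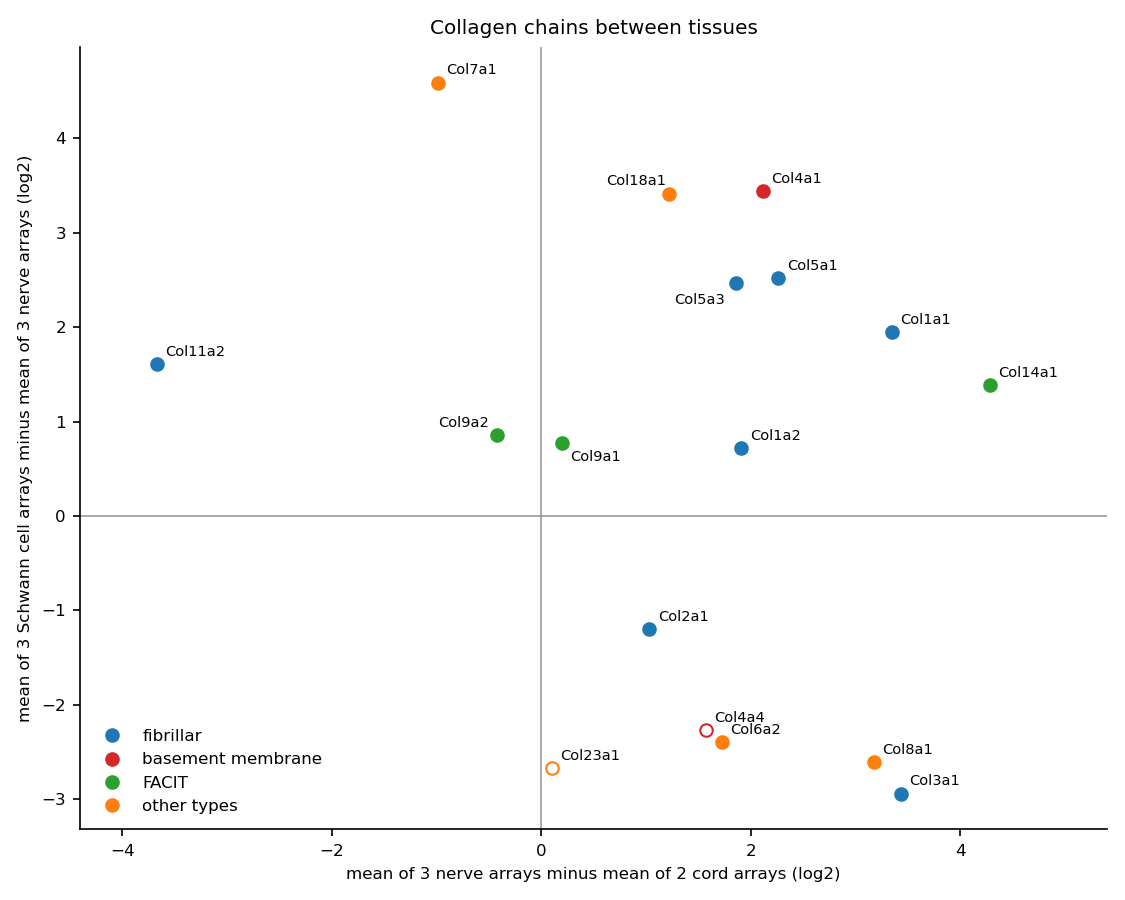
Mean of the 3 nerve arrays minus the mean of the 2 cord arrays (x axis, log2) against the mean of the 3 Schwann cell arrays minus the mean of the 3 nerve arrays (y axis, log2) for 17 collagen chains, coloured by type; open symbols are bounds, and Col7a1 is drawn with its contralateral value as measured. Col4a1, Col5a1, Col5a3 and Col18a1 lie at the upper right, Col3a1, Col6a2 and Col8a1 at the lower right and Col11a2 at the far left; the axes share the nerve arrays, so no relation between them is read.

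Compared with cord, Schwann cells were higher for 8 of 18 chains, against 24.2% of all genes, and lower for 2, against 20.9%. The 8 were Col14a1 (5.67 ± 0.04), Col4a1 (5.56 ± 0.04), Col1a1 (5.29 ± 0.04), Col5a1 (4.79 ± 0.06), Col18a1 (4.63 ± 0.04), Col5a3 (4.33 ± 0.04), Col7a1 (3.60 ± 0.15) and Col1a2 (2.63 ± 0.03). The 2 were Col11a2 (-2.06 ± 0.05) and Col23a1 (at most -2.57, or -0.72 with normexp). On the other Col11a2 probe the difference was -0.57 and the arrays overlapped, so that call rests on the probe used. Without the C-level array the difference of Col7a1 was 2.26 and that of Col18a1 was 3.22. Col3a1, at 12.90 to 13.86 in the cultures and 11.49 to 14.17 in cord, overlapped, and so did Col6a2.

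The fibroblast markers Dcn and Lum, the latter a proteoglycan of fibrils, were not well above background on any of the 3 Schwann cell arrays, at 1.77 to 2.94 and 1.77 to 1.79, against 16.00 to 17.49 and 11.82 to 12.73 in nerve. The other 5 measured markers of that list were well above background in the cultures. Of the 7, 5 were lower in the cultures than in nerve, against 16.2% of all genes, and 1 (Thy1) was higher, against 16.8%. Fn1 overlapped at 15.22 to 15.36. Their log2 summed level was 15.35 to 15.40 in the cultures. The Schwann cell markers Sox10, at 14.37 to 14.94, and Ngfr, at 13.50 to 14.73, were above their nerve values of 10.69 to 12.17 and 8.43 to 10.03.

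Of the pathway genes, 24 of 52 were higher in Schwann cells than in nerve and 13 lower, against 16.8% and 16.2% of all genes. Fibril-binding genes were lower for 7 of 9, led by Dcn (at most -13.03) and Fmod (at most -9.45), and modification and folding genes were higher for 10 of 17, among them Serpinh1 by 1.63.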

How the data were processed

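Total RNA of 8 samples was labelled with Cy3 and hybridised to one-colour Agilent arrays, per the labels. The authors' deposited table holds log2 values; the sources used here do not give its normalization, and all columns share 1 median. The scanner files hold spot intensity values and background flags, per the file headers (Feature Extraction 10.7.3.1; the submitters' processing notes name Agilent Feature Extraction 10.5). Columns and scans were matched by rank: each column's matched scan had a Spearman rho of at least 0.9998, the next scan at most 0.9925, and for 7 columns the scan recorded under the sample had 0.802 to 0.900. Samples were named by the column headings, so directions rest on them; results with the scans as recorded are given under the processing alternatives.

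Probes were named through RefSeq accessions, the probe with the highest mean over the 8 columns standing for a gene. Spot error was the pooled SD of replicate spots in 10 signal bins. Other settings were the matched processed signals over their 75th percentile, normexp (offset 50) on median spot signals with quantile normalization, the mean of probes, other filters and leaving out arrays. Code was tested on simulated data. Every chain is accounted for; from the pathway lists up to 4 genes a list with the largest ratios are named, beside marker genes and a few named for their role after their values were seen; 1 marker gene is not reported here by name. The chains and lists were chosen with earlier results of these data known. Tools were Python 3.11.15, pandas 2.3.3, R 4.3.3 and limma 3.58.1.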

Additional observations from a re-analysis of the deposited data

Results flagged for a closer look

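For 4 chains both nerve segments lay below contralateral nerve by at least 2-fold while the dorsal hemisection lay above C-level cord by at least 2-fold. The share of all genes that met this condition is not given here, so the count has no background. These chains were picked by that condition, so a positive difference between cord and nerve was fixed by the choice. The log2 ratio in cord minus the mean log2 ratio of the 2 nerve segments was 5.72 for Col1a1, 4.07 for Col3a1, 3.16 for Col4a1 and 3.16 for Col5a1. The proximal ratios of Col4a1 and Col5a1 were under 2-fold with normexp, at -0.96 and -0.94, and that of Col4a1 at -0.93 with matched scans at the 75th percentile and -0.98 with the mean of its probes, so these 2 chains met the condition only on some scales. The difference between the tissues was not tested, since each group is 1 array, the nerve segments share 1 contralateral array, and nerve was taken at day 1 and cord at day 5.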

How the results depend on the processing

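Limits: each group was 1 array, the spot error holds no biological spread, and low signals such as Col13a1 near background give only bounds. No paired analysis was possible because each group has 1 array and the labels carry no replicate numbers. No difference of at least 2-fold on the deposited scale changed sign under the matched scans scaled to their 75th percentile. The same held for normexp background correction of those scans with quantile normalization, the mean of all probes of a gene, and the filters on dim probes. Among differences under 2-fold, that of Col9a1 in Schwann cells minus nerve went from 0.78 to -2.29 with the mean of probes.

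Where counts moved by over 1.5 times, the cause was not tested. With both arrays required well above background, chains higher in distal nerve went from 1 to 0, Col7a1 being the one left out. With normexp, chains lower in proximal nerve went from 9 to 5, and chains lower in nerve than cord from 2 to 1. Chains lower in Schwann cells than nerve went from 5 to 3, and than cord from 2 to 1. Over all genes the same counts went from 1450 to 785, 1885 to 1376, 2018 to 1519 and 2588 to 1963. The basement membrane median for Schwann cells minus nerve went from 0.59 to 1.38 with normexp. Pathway genes past 2-fold went from 2 to 0 for distal against proximal nerve and from 2 to 1 at 1 h. For all genes in those comparisons, higher went from 151 to 26 and from 185 to 42, and lower from 237 to 89 and from 147 to 50. With matched scans at the 75th percentile, chains lower in distal than proximal nerve went from 0 to 1 and over all genes from 237 to 276. Chains lower in Schwann cells than cord went from 2 to 4 and over all genes from 2588 to 3355, and for the chains it was also 4 without filter or bound. With the mean of probes the FACIT median for nerve minus cord went from 0.19 to 3.62. With the higher tissue well above background on every array, 1 chain was lower in nerve than cord. Leaving out 1 array at a time, chains higher in nerve than cord numbered 9 to 11 and lower 1 to 3 (1 without the proximal or the dorsal hemisection array), chains higher in Schwann cells than nerve 7 to 11 (11 without the contralateral array) and lower 5 to 6, and chains higher in Schwann cells than cord 8 to 10 and lower 2 to 3.

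The directions depend on which label each scan carries. Under the column headings, 5 of 5 neuron, 5 of 5 astrocyte and 6 of 6 oligodendrocyte markers were higher in cord than nerve. As recorded, the dorsal hemisection ratios mirrored those of 24 h Schwann cells on matched scans (Col3a1 -0.60 against 0.60). The 1 h ratios mirrored those of proximal nerve (Col6a2 0.57 against -0.57). Those recorded scans are thus ones that the headings place in another tissue. With every scan under the sample it is recorded under, chains higher and lower numbered 3 and 3 in distal nerve, chains higher in proximal nerve 8, chains higher and lower in distal against proximal nerve 5 and 9, and chains higher in the dorsal hemisection 0. Over all genes, those higher and lower were 1659 and 2484 of 12502 in distal nerve and 2091 and 3455 of 12206 in proximal nerve. For distal against proximal nerve they were 2537 and 1838 of 12125, and in cord 98 and 84 of 11025. In Schwann cells the chains numbered 8 and 3 at 1 h, 2 and 12 at 24 h and 2 and 13 for 24 h against 1 h. All genes there numbered 1368 and 1287 of 12242, 2605 and 2562 of 12584, and 2319 and 2030 of 12214. Between tissues the chains numbered 1 and 8 for nerve against cord, 1 and 1 for Schwann cells against nerve and 3 and 7 for Schwann cells against cord. All genes numbered 612 and 474 of 12618, 101 and 77 of 12732, and 2433 and 1500 of 12714. Pathway genes past 2-fold numbered 38 in proximal nerve, 38 for distal against proximal nerve, 0 in cord, 15 at 1 h, 33 at 24 h and 37 for 24 h against 1 h. Medians for nerve minus cord became -1.02 (fibrillar), -1.20 (basement membrane) and -1.10 (FACIT), those for Schwann cells minus nerve -0.60 (fibrillar) and 0.11 (FACIT), and those for Schwann cells minus cord -1.63, -0.93 and -0.61 for fibrillar, basement membrane and FACIT chains. The log2 ratios below are those of chains called higher or lower that changed sign; ratios under 2-fold that changed sign are not listed. For distal against contralateral nerve, these were Col1a1 0.87, Col1a2 0.75, Col3a1 1.83, Col4a1 0.76, Col5a1 0.61, Col5a3 0.80, Col6a2 0.62, Col7a1 -0.82 and Col14a1 3.22. For proximal against contralateral nerve, these were Col1a1 3.12, Col4a1 4.30, Col5a1 4.00, Col8a1 -1.12 and Col14a1 5.25. For dorsal hemisection against C-level cord, these were Col3a1 -0.60, Col4a1 -0.27, Col6a2 -0.035, Col7a1 -0.093 and Col8a1 -0.053. For 1 h against unstimulated cells, this was Col6a2 0.57. For 24 h against 1 h, this was Col6a2 -3.19. For nerve against cord, these were Col1a1 -2.01, Col1a2 -1.02, Col4a1 -3.20, Col5a1 -2.37, Col5a3 -2.55 and Col14a1 -2.88. For Schwann cells against nerve, these were Col1a1 -1.45, Col3a1 0.60, Col4a1 -1.44, Col4a4 1.99, Col5a1 -1.04, Col5a3 -0.89, Col6a2 0.77, Col7a1 -3.31, Col11a2 -0.019, Col18a1 -1.93 and Col23a1 1.73. For Schwann cells against cord, these were Col1a1 -3.46, Col1a2 -1.63, Col4a1 -4.64, Col5a1 -3.41, Col5a3 -3.44, Col7a1 -5.25, Col14a1 -2.84, Col18a1 -4.43 and Col23a1 3.68.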
